A study of Mus musculus with 13 samples.

Results

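Tcf7 and 9 other genes of the Wnt and Notch pathways were followed across 13 arrays of sorted mouse bone marrow cells. The 10 genes were Tcf7, Lef1, Ctnnb1, Fzd7, Axin2, Myc, Notch1, Notch2, Lfng and Hes1, out of 15123 genes with at least 3 usable probe sets. A probe set, a group of oligonucleotides that reads 1 stretch of a gene, was used when the annotation gave it to exactly 1 gene, which left 175 probe sets for the 10 genes. Tcf7, Fzd7 and Myc were chosen by their higher values in mCG-PR KLS cells than in WT KLS cells, so that contrast is described here without a test.

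The study measured RNA of sorted stem and progenitor cells from mice that express PML-RARA, the fusion protein of acute promyelocytic leukaemia, from the Ctsg locus (the mCG-PR mice), and from their littermate controls (WT). KLS cells are lineage-negative marrow cells with Sca1 and Kit on their surface, which hold stem cells and early progenitors, and SLAM cells are the part of marrow enriched for long-term stem cells by receptors of the SLAM family. RNA of 1 mouse was put on each Affymetrix Mouse Exon 1.0 ST array, after amplification from 20 ng. Array medians of the deposited intensity ran from 98.6 to 115.3, and with 2 to 5 arrays a group all values are of limited precision.

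The mCG-PR KLS arrays came from 2 mice of 13 weeks and 3 mice of 6 weeks, and the WT KLS arrays from 2 mice of 13 weeks and 2 of 12 weeks. The mCG-PR SLAM arrays came from 2 mice of 7 weeks and the WT SLAM arrays from 2 mice of 6 weeks. The labels give the strain of all mice as Bl/6 Taconic, the genotype of the mCG-PR mice as mCG-PR N17 and that of the controls as wild type. The Ctsg promoter drives the fusion, and Ctsg is best known from granulocyte precursors, so its activity in the sorted cells limits the model. The log2 value of Ctsg lay between 8.23 and 9.54 on the mCG-PR KLS arrays and between 8.10 and 9.32 on the WT KLS arrays. It was lower on the SLAM arrays, at 6.00 and 5.72 in mCG-PR and at 6.22 and 7.47 in WT. No WT KLS mouse was 6 weeks old, so the genotype and the age of the younger mCG-PR KLS mice cannot be told apart.

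The populations were checked on the genes that define the sorts. Cd48, which the usual SLAM sort excludes, was 3.70 lower on the log2 scale in WT SLAM than in WT KLS cells (limma, adjusted p = 5.76e-05), and Slamf1, a marker used to select SLAM cells, was 1.71 higher (limma, adjusted p = 0.0363). On the mCG-PR SLAM arrays Slamf1 lay at 6.21 and 6.63, against 7.47 and 7.68 on the WT SLAM arrays. Replicates of 1 group correlated at 0.950 to 0.966 among KLS arrays and at 0.821 and 0.828 among SLAM arrays, and the median residual SD of a gene was 0.22 in KLS and 0.33 in SLAM cells. The Y-linked gene Eif2s3y was low on both mCG-PR SLAM arrays (3.49 and 3.61) and on mCG-PR KLS replicate 3 of 6 weeks (4.18), against 7.78 or more on each of the others. In the SLAM comparison, that difference cannot be told apart from genotype.

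In the canonical Wnt pathway a Wnt ligand binds a Frizzled receptor such as Fzd7, and beta-catenin, encoded by Ctnnb1, is spared from breakdown and enters the nucleus. There it joins the DNA-binding factors of the TCF/LEF family, including those encoded by Tcf7 and Lef1, and Axin2 and Myc are among the genes they turn on. In the Notch pathway a ligand on a neighbouring cell releases the intracellular part of a receptor such as Notch1 or Notch2, which acts with RBPJ on targets such as Hes1, while Lfng encodes a glycosyltransferase that tunes which ligands a receptor answers to. Tcf7 is known for its role in early T cell development and is also expressed in stem and progenitor cells, Notch1 is required for the T cell fate, and Myc promotes growth and division.

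Sequence before the annotated start sites is shown for Tcf7 and Lfng, the members with the largest differences in KLS and in SLAM cells. RefSeq windows of 250 bases on the GRCm38.p6 build were available for 8 of the 10 genes, 13 windows in all, and Myc and Hes1 had none. In these windows 9 strings were searched on both strands, some being shorter forms of others, and the share of all 32851 windows that hold each is given beside the members' count. For TCF/LEF, CTTTGAT was in 3.21% of all windows and in 0 of the 13. The variant CTTTGAA was in 4.46% and in 0. The shorter CTTTGA was in 13.8% and in 1, of Lef1. The shortest form, CTTTG, was in 48.6% and in 7. For RBPJ, GTGGGAA was in 5.42% and in 1, of Lfng. Its shorter form TGGGAA was in 21.6% and in the same gene. For retinoid receptors, AGGTCA was in 14.0% and in 1, of Tcf7. The E-box CACGTG was in 6.02% and in 2, and the related CACGCG was in 7.62% and in 4. The 2 windows below were chosen after the search because they hold a match. The Lfng window is chr5:140607091-140607340 on the plus strand, with capitals marking GTGGGAA, whose first base lies at -109 from the start. The Tcf7 window is chr11:52282596-52282845 on the minus strand, with capitals marking the reverse complement of AGGTCA, at -13 from 1 of the 2 Tcf7 starts in the table. It lies downstream of the other start, so it is upstream only of the start nearer to it. These matches of letters are a description and not sites.
Lfng upstream window: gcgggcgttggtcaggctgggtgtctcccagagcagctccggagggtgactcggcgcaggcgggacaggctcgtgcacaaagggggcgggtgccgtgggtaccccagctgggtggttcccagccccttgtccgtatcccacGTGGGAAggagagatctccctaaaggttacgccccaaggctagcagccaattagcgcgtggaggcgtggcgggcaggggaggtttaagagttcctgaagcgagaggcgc
Tcf7 upstream window: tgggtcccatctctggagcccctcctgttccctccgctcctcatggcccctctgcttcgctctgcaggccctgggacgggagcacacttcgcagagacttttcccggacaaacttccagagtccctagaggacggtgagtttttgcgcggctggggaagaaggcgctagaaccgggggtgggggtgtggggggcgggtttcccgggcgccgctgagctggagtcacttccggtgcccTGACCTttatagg

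Tcf7, the TCF/LEF factor, was higher on every mCG-PR KLS array than on any WT KLS array. Its log2 value was 8.49 and 8.25 in mCG-PR KLS cells of 13 weeks and 8.41, 8.39 and 8.27 in those of 6 weeks, against 7.26, 7.69, 7.90 and 7.20 in WT KLS cells. The mCG-PR arrays lay within a narrow band, and WT replicate 3 came closest to them. The difference was 0.85 ± 0.16 (SE) on the log2 scale, or 1.80-fold, and ranked 43 by size among the 10586 genes above the filter on low values. All genes were shifted by a median of 0.088 in this contrast, and relative to that Tcf7 was 0.76 higher. The difference was 0.86 at 13 weeks and 0.84 at 6 weeks, and 0.81 and 0.89 against WT replicates 3 and 4 and against WT replicates 1 and 2. These values chose the gene and are a description.

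**Figure D1:**
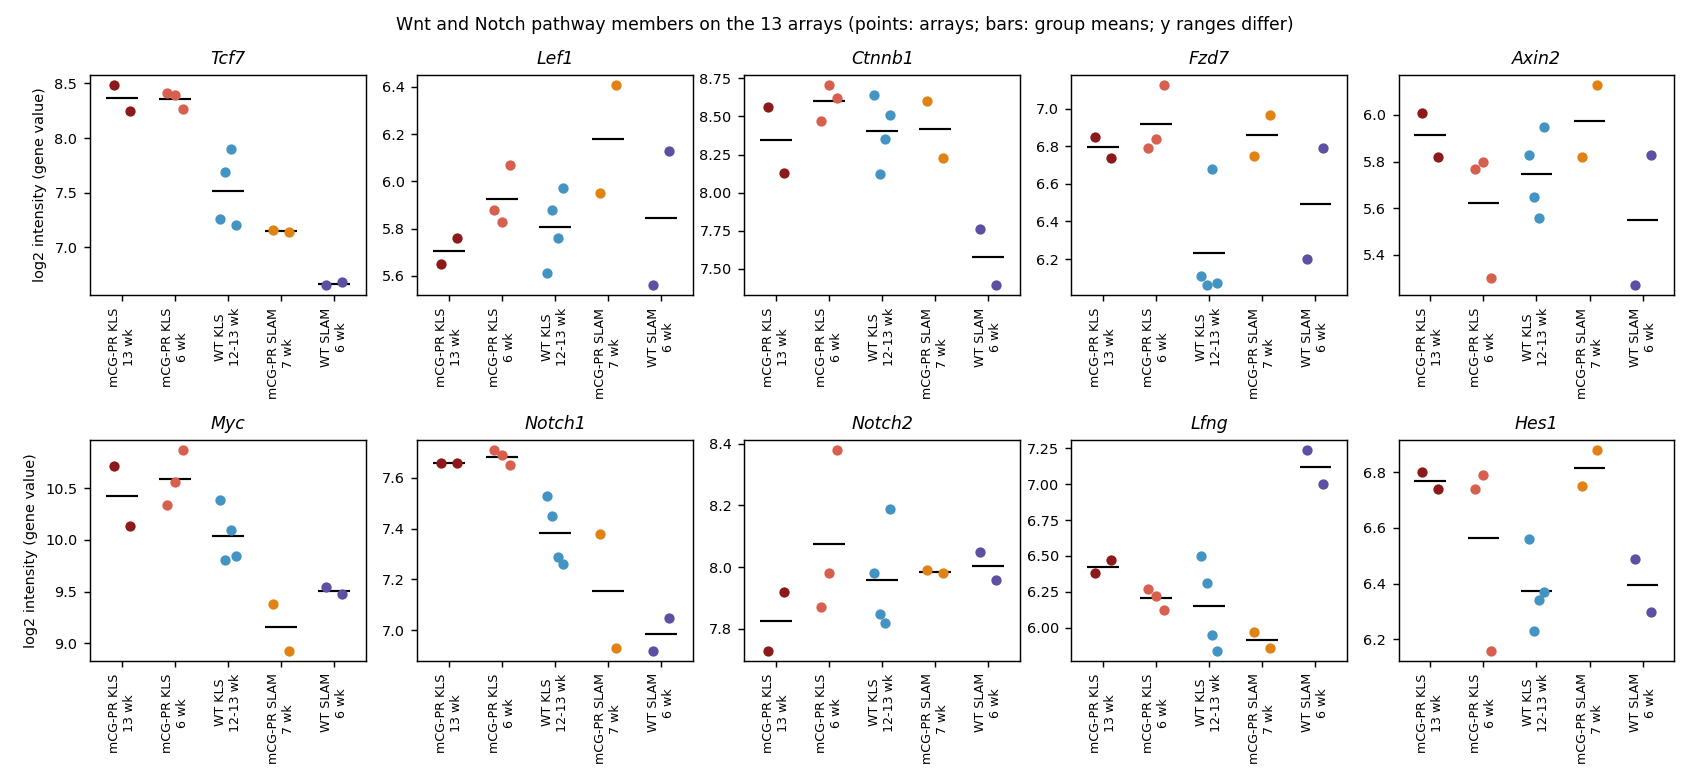
Log2 gene values (median of a gene's probe sets) of the 10 members on the 13 arrays, one panel per gene, with points for arrays and bars for group means. In the Tcf7 panel the 5 mCG-PR KLS arrays lie between 8.25 and 8.49, above the WT KLS arrays at 7.20 to 7.90, and the WT SLAM arrays are lowest at 6.65 and 6.68.

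In SLAM cells Tcf7 was at 7.16 and 7.14 on the mCG-PR arrays, against 6.65 and 6.68 on the WT arrays. The groups did not overlap, but the difference of 0.48 ± 0.27 did not pass (limma, adjusted p = 0.863), and it was 0.26 with the mean of probe sets. WT SLAM cells were 0.85 ± 0.30 below WT KLS cells, again without overlap (limma, adjusted p = 0.137), and this was 0.46 lower with the mean of probe sets. With all 13 arrays in 1 unweighted fit that difference passed (limma, adjusted p = 0.019). By mean value the order of the groups was mCG-PR KLS of 13 weeks (8.37) and of 6 weeks (8.36), WT KLS (7.51), mCG-PR SLAM (7.15) and WT SLAM (6.67). The 2 ages did not differ beyond their spread (limma, adjusted p = 0.985), and mCG-PR SLAM, at most 7.16, lay just under the lowest WT KLS array at 7.20, a difference that was not tested.

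Markers of the sorts and of other cell types also differed between mCG-PR and WT KLS cells of both ages, where 67.9% of all genes were higher and, without overlap, 3.55% were higher and 0.652% lower. Of the 9 measured genes that define the sorts, 3 were higher and 6 lower, with a median of -0.20. Flt3, a cytokine receptor of early multipotent and lymphoid-primed progenitors, was the only one of the 9 without overlap, at 10.36 to 10.90 in mCG-PR KLS cells against 10.11 to 10.31 in WT KLS cells. In mCG-PR SLAM cells Flt3 was at 8.35 and 8.51, against 7.47 and 7.65 in WT SLAM cells. Hlf, a transcription factor of stem cells, was lower with overlap, at 9.62 to 10.83 in mCG-PR KLS cells against 10.38 to 11.3 in WT KLS cells. Fewer cells of a type and less RNA per cell cannot be told apart in sorted bulk samples.

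Of 16 T cell markers 14 were measured, and their mean log2 value was 6.38 to 6.46 in mCG-PR KLS cells of 13 weeks, 6.20 to 6.30 in those of 6 weeks and 5.96 to 6.30 in WT KLS cells. Of the 8 T cell markers above the filter, 7 were higher over both ages, with a median of 0.19 and none without overlap. At 13 weeks 7 of 8 were higher, with a median of 0.39 and 3 without overlap, where 57.7% of all genes were higher and 14.8% were higher without overlap. At 6 weeks 6 of 8 were higher, with a median of 0.09 and 0 without overlap. Of all genes, 71.7% were higher at 6 weeks, with a median of 0.114, and 9.45% were higher without overlap. Rag1, a recombinase gene of early lymphoid cells, averaged 6.66 in mCG-PR KLS cells of 13 weeks (6.38 to 6.94). It averaged 6.38 in those of 6 weeks (5.53 to 7.19), whose range holds that of WT KLS cells (5.81 to 6.33, mean 6.03). Cd3d, of the T cell receptor complex, averaged 5.25, 4.88 and 5.06 in the same 3 groups, below the filter of log2 6. Of 5 B cell genes 4 were higher over both ages, and Blnk, a B cell signalling adaptor, did not overlap, at 7.06 to 7.63 in mCG-PR KLS cells against 6.43 to 7.05 in WT KLS cells. All 4 NK and innate lymphoid genes above the filter were higher over both ages, with a median of 0.19. At 6 weeks all 4 were higher, with a median of 0.34, and at 13 weeks 2 were higher and 2 lower, with a median of 0.05. Klrd1, an NK cell receptor, was at 6.95 to 8.03 in mCG-PR KLS cells against 5.66 to 7.09 in WT KLS cells. Of 7 myeloid genes 3 were higher and 4 lower. Among the higher, with overlap, Mpo lay at 10.62 to 12 in mCG-PR KLS cells against 10.15 to 11.12 in WT KLS cells. Csf1r, also higher with overlap, lay at 6.69 to 7.59 in mCG-PR KLS cells against 6.07 to 6.71 in WT KLS cells. S100a8, a calcium-binding protein of neutrophils and monocytes, was 1.28 lower without overlap. It lay at 10.3 to 11.46 in mCG-PR KLS cells against 11.65 to 12.2 in WT KLS cells. The part of these cell types in the differences of Tcf7 and the other members was not tested.

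The Tcf7 difference in KLS cells was uneven along the gene, and 2 probe sets, named after their values were seen, stood apart. Probe set 4328421 read 10.89 and 10.57 in mCG-PR KLS cells of 13 weeks and 11.02, 11.62 and 10.52 in those of 6 weeks, against 7.15, 8.63, 10.14 and 7.93 in WT KLS cells. Probe set 5458125 read 8.64 and 8.18 in mCG-PR KLS cells of 13 weeks and 8.76, 10.12 and 8.65 in those of 6 weeks, against 6.31, 7.13, 7.99 and 5.80 in WT KLS cells. Both separated the groups, WT replicate 3 being the closest WT array in each. Without the 2, the median of the other 12 probe sets was 8.08 to 8.26 in mCG-PR KLS cells of 13 weeks, 7.65 to 8.30 in those of 6 weeks and 7.20 to 7.69 in WT KLS cells, a difference of 0.60 with a slight overlap. In SLAM cells the difference without them was 0.18. Of the 14 probe sets, 12 were higher in mCG-PR KLS cells and 5 of those did not overlap. The share of all probe sets on the arrays was not computed, for this or for the other members. Members near level in KLS cells also had most probe sets higher. Ctnnb1 had 14 of 17 higher, 2 of those without overlap, and Notch2 had 25 of 36 higher, 0 of those without overlap.

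**Figure D2:**
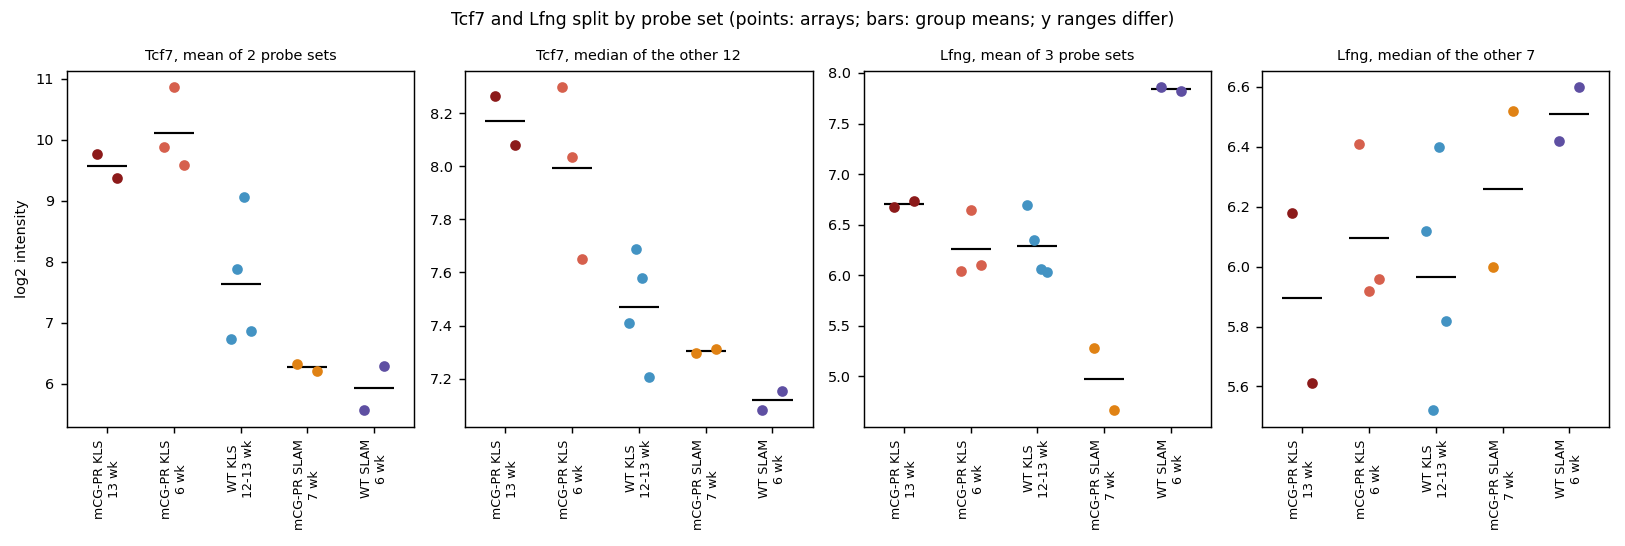
Log2 intensity of Tcf7 and Lfng with the most different probe sets taken apart from the rest, by group, with points for arrays and bars for group means. The mean of the 2 Tcf7 probe sets is 9.38 to 10.87 in mCG-PR KLS and 6.73 to 9.07 in WT KLS cells, and the mean of the 3 Lfng probe sets is 4.66 and 5.28 in mCG-PR SLAM and 7.82 and 7.86 in WT SLAM cells.

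Fzd7, a Wnt receptor, was also higher in mCG-PR KLS cells. Its values were 6.85 and 6.74 at 13 weeks and 6.79, 6.84 and 7.13 at 6 weeks, against 6.11, 6.06, 6.68 and 6.07 in WT KLS cells. WT replicate 3 was the only WT array above 6.11, and the groups still did not overlap. With array medians subtracted they barely separated, the lowest mCG-PR KLS array lying at -0.48 and WT replicate 3 at -0.49. The difference was 0.64 ± 0.15, and 0.38 with the mean of probe sets. Of its probe sets, 7 of 7 were higher, by 0.01 to 0.83, but 0 of them without overlap. Lfng, whose gene values overlapped in KLS cells, also had 10 of 10 probe sets higher. In SLAM cells Fzd7 was at 6.75 and 6.97, against 6.20 and 6.79 in WT SLAM cells, a difference that did not pass (limma, adjusted p = 0.922).

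Lef1, the other TCF/LEF factor among the members, and Axin2, a feedback inhibitor and Wnt target, lay below the filter on low values and were not tested. Lef1 lay between 5.65 and 6.07 on the mCG-PR KLS arrays and between 5.61 and 5.97 on the WT KLS arrays. Axin2 lay between 5.30 and 6.01 on the mCG-PR KLS arrays and between 5.56 and 5.95 on the WT KLS arrays. In SLAM cells Lef1 was at 5.95 and 6.41 in mCG-PR, against 5.56 and 6.13 in WT, and Axin2 at 5.82 and 6.13 in mCG-PR, against 5.27 and 5.83 in WT. Both genes overlapped between the genotypes in both populations, where Tcf7 did not.

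Ctnnb1, which encodes beta-catenin, was near level in KLS cells and higher in mCG-PR SLAM cells in both replicates. It was at 8.60 and 8.23 in mCG-PR SLAM cells, against 7.76 and 7.39 in WT SLAM cells, a difference of 0.84 ± 0.32 that did not pass (limma, unadjusted p = 0.0420, adjusted p = 0.788). WT SLAM cells were 0.83 ± 0.28 below WT KLS cells, where it was at 8.64, 8.12, 8.35 and 8.51, also without passing (limma, adjusted p = 0.129, and 0.0228 with all 13 arrays unweighted). mCG-PR KLS cells were at 8.56 and 8.13 at 13 weeks and at 8.47, 8.71 and 8.62 at 6 weeks, overlapping the WT KLS arrays.

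Myc stood higher in mCG-PR KLS cells with overlap and lower in mCG-PR SLAM cells. It was at 10.71 and 10.13 at 13 weeks and 10.34, 10.56 and 10.87 at 6 weeks, against 10.39, 9.81, 10.10 and 9.84 in WT KLS cells, a difference of 0.48 ± 0.17. In SLAM cells it was at 9.38 and 8.93 in mCG-PR, against 9.54 and 9.48 in WT, and the difference of -0.35 ± 0.31 did not pass (limma, adjusted p = 0.920). It was -0.13 with quantile normalization and -0.64 with the mean of probe sets, and -0.12 without mCG-PR SLAM replicate 2 and -0.58 without mCG-PR SLAM replicate 1. Its single probe sets varied in SLAM cells, with differences of -2.13 for 5534261, -0.28 for 5107776 and 5385579, and 0.15 for 5369244. Only 5534261 did not overlap, at 5.68 and 5.80 in mCG-PR SLAM cells, against 9.51 and 6.24 in WT SLAM cells. The difference between the 2 populations was not tested.

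Notch1 was higher on every mCG-PR KLS array than on any WT KLS array, but not with array medians subtracted. Its values were 7.66 and 7.66 at 13 weeks and 7.71, 7.69 and 7.65 at 6 weeks, against 7.53, 7.45, 7.29 and 7.26 in WT KLS cells. The difference was 0.29 ± 0.12, with 35 of 39 probe sets higher and 5 of those without overlap, and single probe sets ran from -0.24 to 1.68. By size the gene's difference ranked 1894 among the genes above the filter on low values. With array medians subtracted, WT replicate 2 lay at 0.38, above mCG-PR replicates 2 and 3 of 6 weeks at 0.37 and 0.33. The gene's difference was 0.20 with array medians subtracted and 0.19 with quantile normalization. It was 0.40 against WT replicates 3 and 4, and 0.18 against WT replicates 1 and 2, whose label numbers lie apart from those of the other 11 arrays. In SLAM cells Notch1 was at 7.38 and 6.93, against 6.92 and 7.05 in WT, and did not pass (limma, adjusted p = 0.968). Notch2 differed by 0.01 between mCG-PR and WT KLS cells, at 7.73 to 8.38 in mCG-PR against 7.82 to 8.19 in WT. In SLAM cells Notch2 was at 7.99 and 7.98 in mCG-PR, against 8.05 and 7.96 in WT (limma, adjusted p = 0.994).

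Lfng, the Notch-modifying glycosyltransferase, had the largest SLAM difference of the members. It was at 5.97 and 5.86 in mCG-PR SLAM cells, against 7.24 and 7.00 in WT SLAM cells, without overlap. The difference of -1.21 ± 0.28, or 0.433-fold, did not pass (limma, unadjusted p = 0.00673, adjusted p = 0.750). It passed with all 13 arrays in 1 unweighted fit (limma, adjusted p = 0.0178), a fit in which the smaller spread of the KLS arrays is shared with the SLAM arrays. WT SLAM cells were 0.97 ± 0.28 above WT KLS cells (limma, adjusted p = 0.0752). This passed with all arrays unweighted (0.00837), with the mean of probe sets (0.0272) and without WT KLS replicate 1 (0.0447, each a limma adjusted p). In KLS cells it overlapped, at 6.38 and 6.47 at 13 weeks and 6.27, 6.22 and 6.12 at 6 weeks, against 6.50, 6.31, 5.95 and 5.84 in WT. The KLS difference was 0.14, with 0.40 against WT replicates 3 and 4 and -0.12 against WT replicates 1 and 2.

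The Lfng difference in SLAM cells came mostly from 3 of its 10 probe sets, again named after their values were seen. Probe set 4784022 read 4.46 and 3.64 in mCG-PR SLAM cells, against 8.27 and 9.15 in WT SLAM cells. Probe set 4827448 read 5.05 and 4.84 in mCG-PR SLAM cells, against 7.94 and 6.80 in WT SLAM cells. Probe set 5002180 read 6.33 and 5.51 in mCG-PR SLAM cells, against 7.38 and 7.51 in WT SLAM cells. Probe set 5190981, the next in order, differed by -1.10 and was kept. Without the 3, the SLAM difference was -0.25, with 6.00 to 6.52 in mCG-PR and 6.42 to 6.60 in WT, which overlap, and WT SLAM cells were 0.54 above WT KLS cells.

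**Figure D3:**
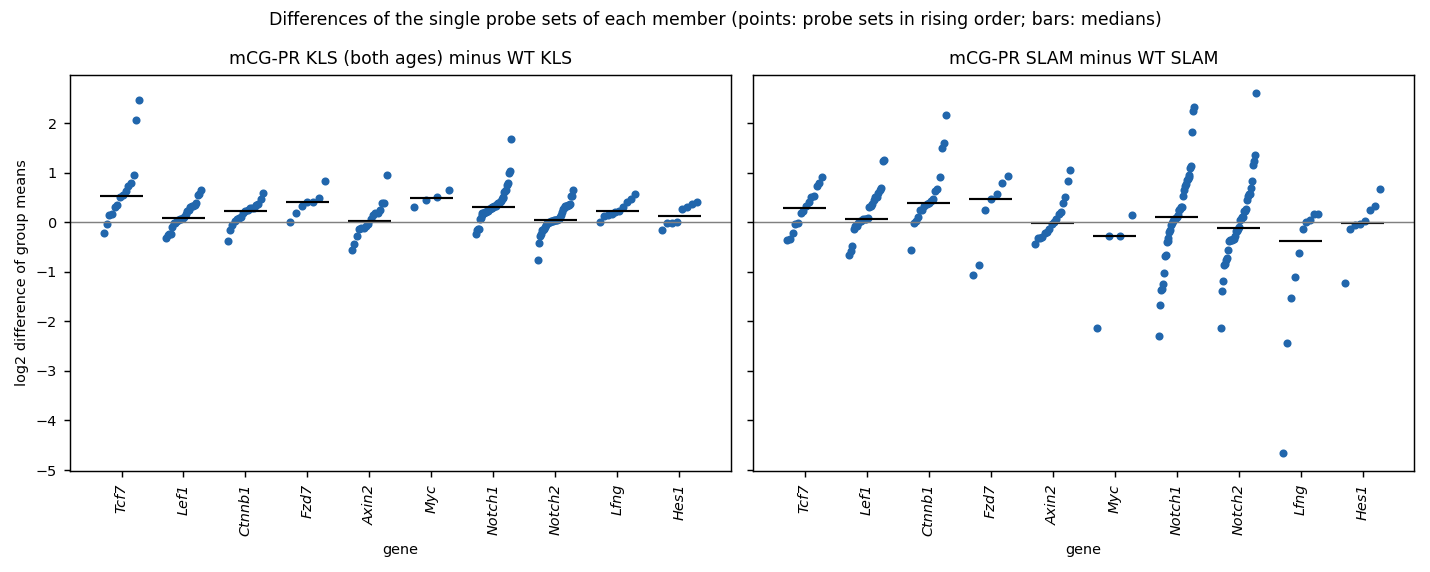
Log2 difference of each probe set of the members, mCG-PR minus WT, in KLS cells (left) and in SLAM cells (right), with points in rising order and bars at the median. The 2 highest Tcf7 points in KLS cells, at 2.06 and 2.46, stand apart from the rest of the gene, and 4 Lfng points in SLAM cells lie below -1, down to -4.66.

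Hes1, a transcriptional repressor and Notch target, was at 6.80 and 6.74 in mCG-PR KLS cells of 13 weeks and at 6.74, 6.79 and 6.16 in those of 6 weeks, against 6.56, 6.23, 6.34 and 6.37 in WT KLS cells. The 6.16 was the lowest of the KLS values and came from the array with low Eif2s3y. In SLAM cells Hes1 was at 6.75 and 6.88 in mCG-PR, against 6.49 and 6.30 in WT (difference 0.43 ± 0.28, limma, adjusted p = 0.884, and -0.02 with the mean of probe sets).

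In the SLAM comparison 0 of the 8 members above the filter passed (limma, 2 at an unadjusted p under 0.05), against 0% of all genes. Without overlap, 3 were higher, where 16.4% of all genes were, and 2 lower, where 18.8% were. An exact permutation test of 2 against 2 arrays could not go below 1 in 3. Markers of other cells differed between these groups. The 6 measured erythroid and megakaryocyte genes averaged 6.49 and 6.62 in mCG-PR SLAM cells, against 7.06 and 7.20 in WT SLAM cells, and the 7 myeloid genes 7.87 and 8.29 in mCG-PR SLAM cells, against 8.68 and 9.48 in WT SLAM cells. Their part in the SLAM differences was not tested. Between WT SLAM and WT KLS cells 0 of 8 members passed (limma, 3 at an unadjusted p under 0.05), against 3.12% of all genes, with 1 higher and 4 lower without overlap, where 12.9% and 22.3% of all genes were. Between 13 and 6 weeks 0 of 8 passed and 0 had an unadjusted p under 0.05 (limma), against 0.00945% of all genes that passed. Without overlap, 1 was higher at 13 weeks, Lfng, and 0 lower, where 10.7% and 20.1% of all genes were. In mCG-PR KLS cells of both ages 3 members were higher than in WT KLS cells without overlap and 0 lower, where 3.55% and 0.652% of all genes were. Of these 3, Tcf7 and Fzd7 were chosen by their values in this contrast, and Notch1 overlapped relative to the array medians. The counts for this contrast, also at each age, are therefore a description. At 13 weeks 4 were higher, Hes1 being the fourth, and 0 lower, where 14.8% and 10.2% of all genes were. At 6 weeks 3 were higher and 0 lower, where 9.45% and 1.54% of all genes were. Of all genes, limma called 0.085% over both ages, 0.00945% at 13 weeks and 0.0378% at 6 weeks.

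**Figure D4:**
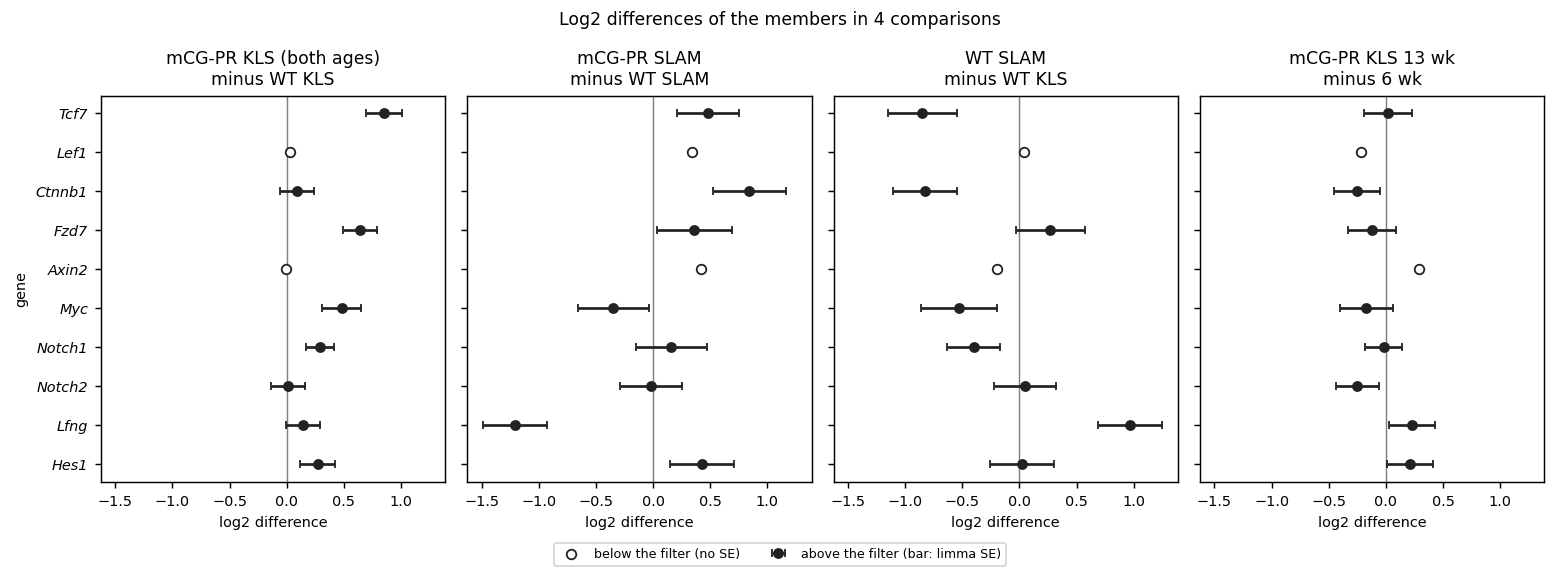
Log2 differences of the 10 members in 4 comparisons, with filled points for genes above the filter, bars for limma's SE and open points for Lef1 and Axin2 below it. The KLS panel on the left is a description, since it chose members; Lfng has the largest value in SLAM cells, at -1.21.

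Other genes of the pathways were taken from lists of Wnt ligands, receptors, inner components, inhibitors and targets and Notch ligands, receptors, nuclear components and targets. Of 148 genes 135 were measured and 104 lay above the filter. In mCG-PR KLS cells 81 of 104 were higher than in WT, where 67.9% of all genes were, with a median of 0.15, beside 0.088 over all genes. The 4 largest differences, with overlap and named after their values were seen, were of the Wnt receptor Fzd3 (-0.70), the cell cycle inhibitor gene Cdkn1a (0.51), the Deltex gene Dtx4 (0.47) and the Notch target Heyl (0.45). Fzd3 was at 5.17 to 6.04 in mCG-PR KLS cells against 5.9 to 6.64 in WT KLS cells. It averaged 5.52 at 13 weeks and 5.76 at 6 weeks in mCG-PR KLS cells, below the filter of log2 6. Fzd3 therefore passed the filter only through the higher values of the other groups. Without overlap, 6 were higher and 0 lower, where 3.55% and 0.652% of all genes were. The largest 3 differences among those 6 were of Rspo4, which strengthens Wnt signalling, the ligand Wnt7b and the co-receptor Lrp5. Rspo4 was 0.37 higher, at 6.06 to 6.33 in mCG-PR KLS cells against 5.77 to 5.97 in WT KLS cells. The WT KLS arrays lay below the filter of log2 6, so Rspo4 passed it only through the higher values of the other groups. Wnt7b was 0.36 higher, at 6.28 to 6.65 in mCG-PR KLS cells against 5.95 to 6.19 in WT KLS cells. Lrp5 was 0.29 higher, at 7.52 to 7.84 in mCG-PR KLS cells against 7.30 to 7.47 in WT KLS cells. In SLAM cells 0 of 104 passed (limma, 4 at an unadjusted p under 0.05) and the median was 0.09, beside -0.023 over all genes. Between WT SLAM and WT KLS cells 1 of 104 passed, where 3.12% of all genes did. It was Cul1, a scaffold of ubiquitin ligases, at 8.16 and 8.38 in WT SLAM against 9.41 to 9.82 in WT KLS cells (difference -1.30 ± 0.29, limma, adjusted p = 0.0252).

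The genes whose pattern was most like Tcf7 over the 13 arrays were Exo1, Kmo, Ttl, Cd93 and Sv2a, with Pearson's r of 0.93 to 0.94. Over the 9 KLS arrays they were Rnf168, Desi1 (listed as Fam152b), Kcnab2, Dmrta2 and Adamts7, with r of 0.96 to 0.98. Among the members, Notch1 (0.87) and Myc (0.79) came closest over 13 arrays, and Fzd7 (0.89) and Notch1 (0.76) over the KLS arrays. These correlations are a description, since arrays share groups and sorts.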

How the data were processed

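RNA of sorted KLS and SLAM cells was measured on 13 Affymetrix Mouse Exon 1.0 ST arrays. The authors' deposited table held linear intensity values for 229581 probe sets, from 2.34 to 21748.2, and the submitters' processing notes name RMA and the mm9 build; its version and settings: not given in the sources used here. These deposited values were put on a log2 scale with no further scaling. A gene's value was the median log2 value of its single-gene probe sets, with at least 3 per gene (15123 of 16299 genes). Genes whose mean over the arrays exceeded its 30th percentile, a log2 value of 6, entered the tests (10586 genes), made in R 4.3.3 with limma 3.58.1, two-sided, with Benjamini-Hochberg adjustment over all tested genes at 0.05. The 9 KLS arrays and the 4 SLAM arrays were fitted apart; WT SLAM against WT KLS used all 13 arrays with weights by population (1.43 and 0.45). The script was tested on simulated data. P-values measure the spread between these arrays.

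The members and gene lists were chosen with earlier results of these data known. The named list genes were the 3 largest per direction among those called, or, in KLS genotype contrasts, among those without overlap. Fzd3, Cdkn1a, Dtx4 and Heyl were named outside this rule, after their values were seen. Likeness to Tcf7 named 5 genes per set of arrays. Upstream sequence came from RefSeq on GRCm38.p6, a build other than that of the files, so no coordinates of the files were used. Alternatives were all arrays unweighted or weighted, other filters, the mean of probe sets, array medians subtracted, quantile normalization, the replicate number as a block, subsets of WT KLS and each array left out. Leaving out the most different probe sets was chosen after seeing the data.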

Additional observations from a re-analysis of the deposited data

Results flagged for a closer look

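Of 20 groups of 4 or 5 arrays examined, 3 array values of the members stood far from the others of their group by Dixon's test, which sets the gap to the nearest array against the range of the group, and by its design flags about 1 in 20 groups by chance. Fzd7 was at 6.68 in WT KLS replicate 3, where the other WT KLS arrays lay between 6.06 and 6.11. It was at 7.13 in mCG-PR KLS replicate 3 of 6 weeks, where the 4 other mCG-PR KLS arrays lay between 6.74 and 6.85. Hes1 was at 6.16 in that same array, where the 4 others lay between 6.74 and 6.80. The cause was not tested.

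The gene value of Myc was lower on each mCG-PR SLAM array than on each WT SLAM array (difference -0.35). Its single probe sets differed there by -2.13 to 0.15, and all but 5534261 overlapped. All 5 mCG-PR KLS arrays lay above the WT KLS mean of 10.04 (difference 0.48, with overlap of single arrays). The difference between the populations was not tested.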

How the results depend on the processing

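The number of called genes depended on the fit. For mCG-PR SLAM against WT SLAM (0 called) it was 275 with all 13 arrays unweighted, 3 with population weights, 1 with the filter at the 50th percentile and 1 with the mean of probe sets, and 0 to 0 with an array left out. For WT SLAM against WT KLS (330) it was 1229 unweighted, 535 with the mean of probe sets, 123 with quantile normalization, and 94 to 334 with an array left out. For 13 against 6 weeks (1) it was 0 unweighted, without the filter, with the mean of probe sets and with medians subtracted, and 0 to 17 with an array left out. For both ages of mCG-PR KLS against WT KLS (9) it was 0 unweighted, 19 with the 50th percentile filter, 17 with the mean of probe sets, 0 against WT replicates 3 and 4, 27 against WT replicates 1 and 2, and 0 to 41 with an array left out. At 6 weeks (4) these were 1, 11, 13, 0 and 25, with 12 for weights, 1 without the filter and 1 with quantile normalization, and 1 to 43 with an array left out. At 13 weeks (1) it was 0 unweighted, with weights, without the filter, with medians subtracted and against WT replicates 3 and 4, 2 with the mean of probe sets, 10 against WT replicates 1 and 2, and 0 to 14 with an array left out. The cause was not tested.

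The replicate numbers did not pair the samples, since deviations of same-numbered arrays correlated at -0.04 to 0.08. With the replicate block the count was 0 for mCG-PR SLAM against WT SLAM, 189 for WT SLAM against WT KLS, 1 for 13 against 6 weeks, 1 for both ages, 1 at 6 weeks and 2 at 13 weeks.

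No member had passed in the 3 tested contrasts, and several changed sign. In SLAM cells Hes1 was -0.02 with the mean of probe sets, Notch2 0.07 with quantile normalization and 0.02 without WT SLAM replicate 1, and Notch1 -0.06 without mCG-PR SLAM replicate 1. With an array left out, Notch1 ran from -0.06 to 0.39 and Notch2 from -0.07 to 0.02. Between WT SLAM and WT KLS cells Notch2 was -0.04 and Hes1 -0.02 with the mean of probe sets, Hes1 was -0.09 with the replicate block, -0.03 without WT KLS replicate 2 and -0.08 without WT SLAM replicate 1, Notch2 was 0.00 without WT KLS replicate 3 and Fzd7 -0.03 without WT SLAM replicate 2, with 0.56 as its highest value. Between 13 and 6 weeks Tcf7 was -0.15 and Hes1 -0.12 with the mean of probe sets, and Tcf7 was -0.11 without mCG-PR KLS 13-week replicate 1 and -0.03 without 6-week replicate 3, with 0.14 as its highest value. Notch1 was 0.07 with medians subtracted and 0.11 with quantile normalization, Myc 0.06 with quantile normalization and 0.12 without 13-week replicate 2 (down to -0.45 without replicate 1), and Fzd7 0.03 with the replicate block. For mCG-PR KLS against WT KLS, over the alternatives that keep its probe sets, Tcf7 lay between 0.67 and 0.98 for both ages, 0.58 and 0.99 at 13 weeks and 0.65 and 0.97 at 6 weeks.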
